A study of Mesocricetus auratus with 36 samples.

Results

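Out of the 32340 genes counted, 10 genes of fatty acid import and oxidation were followed in the ependymal strip of the hypothalamus of male golden hamsters (Mesocricetus auratus). They were picked by name: the 3 forms of carnitine palmitoyltransferase 1 (Cpt1a, Cpt1b, Cpt1c), Cpt2, the carnitine carrier Slc25a20, the acyl-CoA synthetases Acsl5 and Acsl6, the acyl-CoA dehydrogenases Acadm and Acadl, and the pyruvate dehydrogenase kinase Pdk4. All 10 had a row in each of the 36 count tables, and all 10 passed the filter on low counts. The strip was cut out by laser capture to enrich for tanycytes, which are glia at the base of the third ventricle, and RNA was sequenced from 6 animals in each of 6 groups.

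The long photoperiod group had 14 h of light at 22 °C and is labelled 8 months old, although the protocol has such animals sampled at the start of short days as well as at the close of the study, so some ages are uncertain. The other 5 groups were moved to 10 h of light at 8 °C. Pre-hibernation animals (4 months old) were taken after 4 weeks. Late pre-hibernation animals (6 months old) were taken at 8 to 12 weeks, before any torpor. Interbout and torpid animals (both 6 months old) had gone through 3 cycles of torpor and arousal and were taken 23 h into a warm interval or 13 h into torpor. Refractory animals (8 months old), still on short days and in the cold, had stopped hibernating spontaneously at about 20 weeks and were taken 2 weeks or more after their last bout. All animals were intact males fed without restriction and carried an abdominal temperature logger. Day length and ambient temperature change together from long photoperiod to every short-day group and cannot be told apart. By the labels age differs as well, except between long photoperiod and refractory animals. The refractory group shares light and cold with the other short-day groups and differs from them in age and time.

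Long-chain fatty acids enter mitochondria as carnitine esters. A synthetase first joins the fatty acid to coenzyme A, CPT1 on the outer membrane moves the acyl group to carnitine, the carrier Slc25a20 exchanges acylcarnitine for carnitine across the inner membrane, and CPT2 restores the acyl-CoA for beta oxidation, whose first step the acyl-CoA dehydrogenases carry out. CPT1 is inhibited by malonyl-CoA and is the main control point of the route. Cpt1a is the form of liver and most other tissues including glia, Cpt1b is best known from muscle and brown fat, and Cpt1c is a brain form in the endoplasmic reticulum with little transferase activity. Tanycytes are known to take up and oxidise fatty acids, and hibernators shift from carbohydrate to stored fat as fuel.

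The libraries held 5.161 to 28.54 M counts (median 22.44 M, where M is 1000000). Of these, 3 stood apart by ribosomal RNA: refractory 4 (41.8% of counts on ribosomal RNA genes, 5.161 M counts), pre-hibernation 5 (9.28%, 12.745 M) and interbout 6 (7.21%, 14.113 M), against at most 0.826% in the other 33. These rRNA-rich libraries were lower than every other library of their group for 8, 7 and 6 of the 10 genes, so results are also given without them where that matters. In late pre-hibernation, replicate 4 was the lowest library for 6 of the 10 genes and in long photoperiod replicate 5 was. Levels are counts per 1000000 scaled with TMM factors (CPM), and differences are log2 fold changes ± SE. A difference passed when its Benjamini-Hochberg adjusted p from edgeR's quasi-likelihood test over 17926 genes was under 0.05. Summed CPM of 16 tanycyte markers, Rax, Vim and Nes among them, lay between 1824 and 4865 in all libraries, with none at 0 in any group. Group medians of this sum ran from 2838 CPM in refractory to 3617 CPM in interbout animals, with 3354 CPM on long photoperiod. Single markers moved: Rax, Dio2 and Ptn fell in torpid animals against long photoperiod. Dio2 and Ptn also fell in late pre-hibernation and refractory animals, and Dio2 in pre-hibernation. Summed neuron markers reached 421.4 to 1176 and summed astrocyte markers 2774 to 6309, so the strip holds other cells too. In such bulk tissue fewer cells of a type and less RNA per cell cannot be told apart.

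Per kilobase of exon, over all 36 libraries, the medium-chain dehydrogenase gene Acadm stood highest at 48.5 ± 7.17 CPM per kb (SD), followed by Slc25a20 at 42.5 ± 8.43 and Cpt2 at 32.8 ± 6.66. The long-chain dehydrogenase gene Acadl stood at 32.1 ± 3.99, Acsl6 at 19.1 ± 6.55, Acsl5 at 16.3 ± 2.76, Cpt1a at 14.8 ± 2.94 and Cpt1c at 13.1 ± 3.23. Cpt1b, at 5.37 ± 3.00 CPM per kb, and Pdk4, at 1.505 ± 0.395, were the lowest. Neighbours in this order lay within 1 SD of each other, except at the steps from Slc25a20 to Cpt2, from Acadl to Acsl6, from Cpt1c to Cpt1b and from Cpt1b to Pdk4. Cpt1b had the widest range among groups, 3.65-fold between its highest and lowest group mean, and Acadl the narrowest, 1.15-fold.

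**Figure D1:**
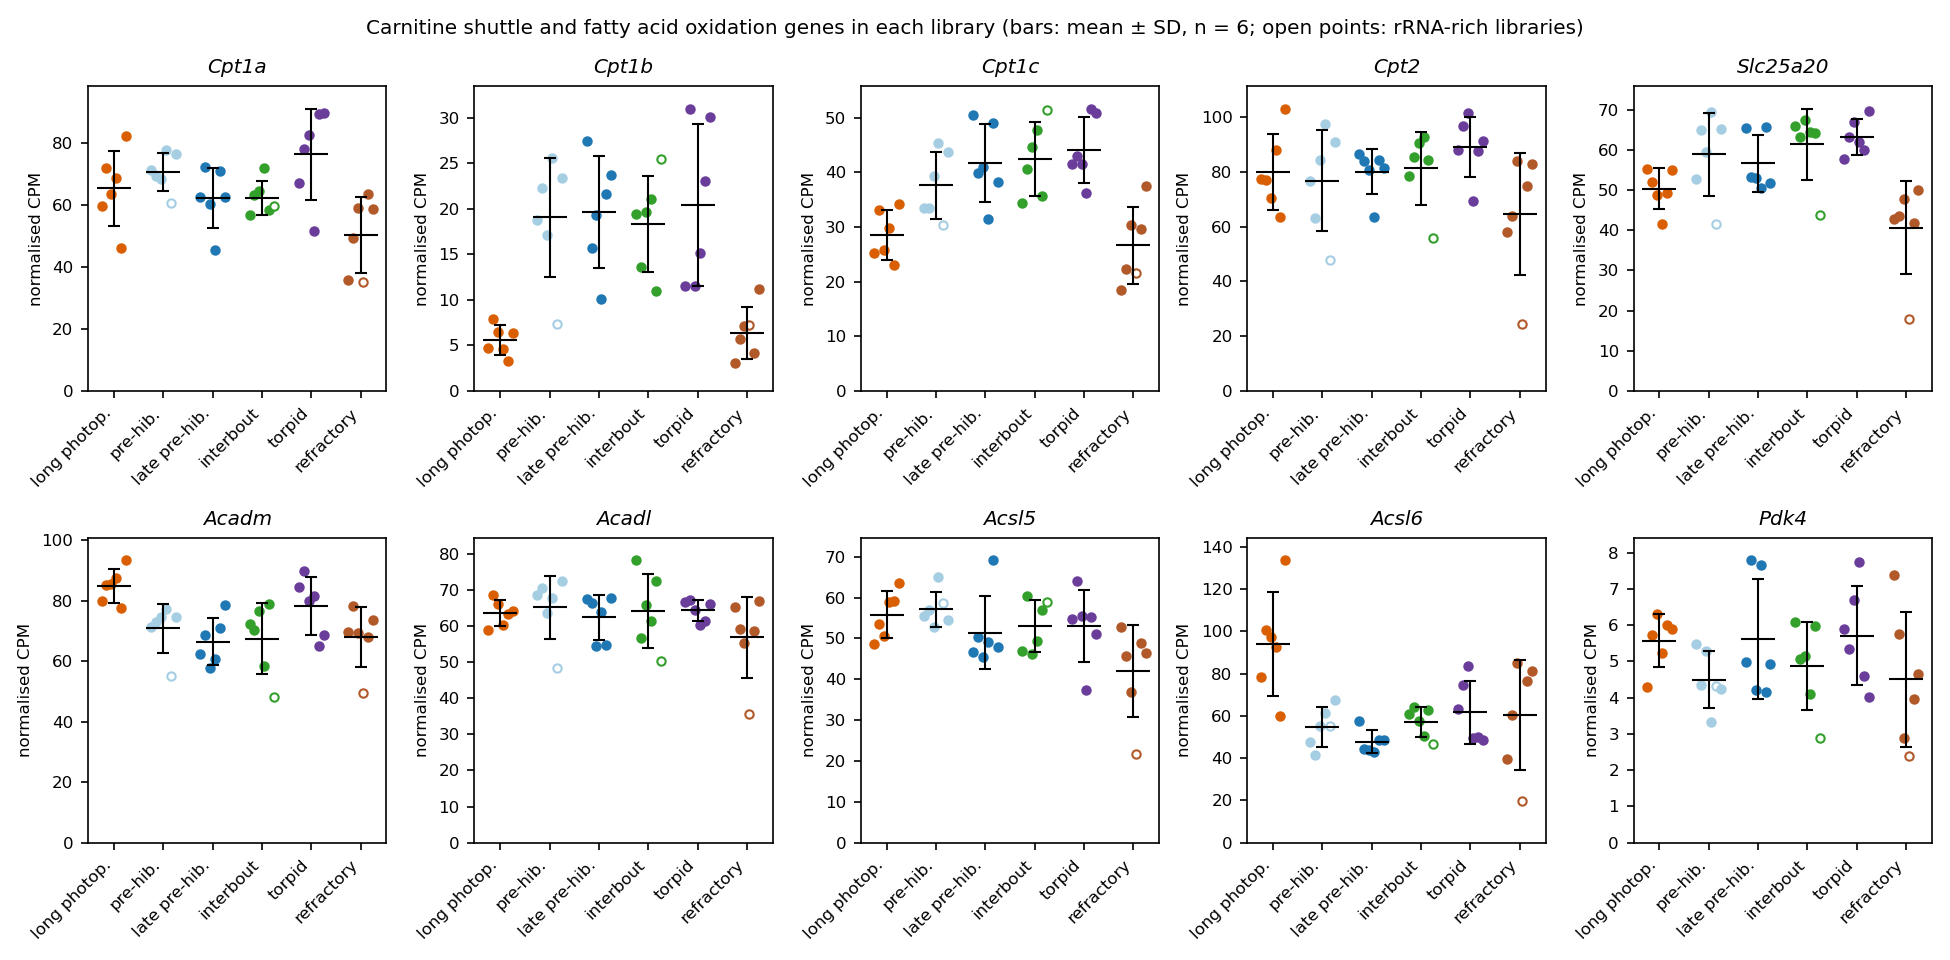
Normalised CPM (y axis, from 0, own scale per gene) of each of the 10 genes in all 36 libraries by group (x axis), with the mean ± SD of 6 animals and the 3 rRNA-rich libraries as open points. Cpt1b sits between 3.05 and 11.2 CPM in the long photoperiod and refractory groups and mostly above 10 CPM in the others, Acsl6 is highest on long photoperiod, and Pdk4 and Acadl overlap across all groups.

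Of the 10 genes, 5 differed among the 6 groups, Cpt1b, Cpt1c, Acsl6, Slc25a20 and Cpt1a, where 14.6% of all genes tested did. The 10 were chosen with earlier results of these data known, so counts beside shares of all genes, here and below, are descriptions. Adjusted p from edgeR was 1.3e-05 for Cpt1b, 0.000795 for Cpt1c, 0.0107 for Acsl6, 0.0192 for Slc25a20 and 0.0479 for Cpt1a. Of the 5 that did not pass, Acadm had an adjusted p of 0.0903 in edgeR, Acsl5 0.204, Cpt2 0.491, Pdk4 0.63 and Acadl 0.754. Cpt1a was the least secure: its edgeR adjusted p rose above 0.05 in 28 of 36 fits with a single library removed, to at most 0.123 (without refractory 1), and to 0.0747 without the rRNA-rich libraries. Acsl6 was lost in 1 of 36, without long photoperiod 6 (edgeR adjusted p = 0.0585). Without the rRNA-rich libraries Acadm passed as well (edgeR adjusted p = 0.0171).

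Cpt1b was the gene that moved most. On long photoperiod its lowest, median and highest libraries were at 3.33, 5.57 and 7.89 CPM. They were at 7.37, 20.5 and 25.6 CPM in pre-hibernation, and at 10.1, 20.4 and 27.5 CPM in late pre-hibernation. They were at 10.95, 19.6 and 25.4 CPM in interbout and at 11.5, 19.1 and 30.98 CPM in torpid animals. All libraries of the last 3 groups stood above all of long photoperiod, as did 5 of 6 in pre-hibernation, where the exception was the rRNA-rich replicate 5. In refractory animals Cpt1b was back at 3.05, 6.46 and 11.2 CPM, inside or near the long photoperiod range.

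Against long photoperiod, Cpt1b rose by 1.77 ± 0.31 log2 in pre-hibernation (edgeR adjusted p = 0.000477), that is 3.42-fold. The rise was 1.81 ± 0.31 in late pre-hibernation (edgeR adjusted p = 0.000203), 1.71 ± 0.31 in interbout (edgeR adjusted p = 0.00121) and 1.86 ± 0.31 in torpid animals (edgeR adjusted p = 7.47e-05). Refractory animals differed from long photoperiod by 0.19 ± 0.31 (edgeR adjusted p = 0.829). They were 1.59 ± 0.31 below pre-hibernation (edgeR adjusted p = 0.00345), and the difference was -1.63 ± 0.31 against late pre-hibernation (edgeR adjusted p = 0.00296), -1.52 ± 0.31 against interbout (edgeR adjusted p = 0.00924) and -1.68 ± 0.31 against torpid animals (edgeR adjusted p = 0.00037). Refractory and torpid libraries did not overlap. Each of these 8 calls held in all 12 fits that left out 1 library of either group, and also when the rRNA-rich ones were dropped.

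In the 4 short-day groups before the refractory state Cpt1b did not pass in any pair, with differences between -0.10 and 0.15 log2. Its order by mean was torpid at 20.4 ± 8.92 CPM, late pre-hibernation at 19.6 ± 6.12, pre-hibernation at 19.1 ± 6.50, interbout at 18.4 ± 5.25, refractory at 6.41 ± 2.85 and long photoperiod at 5.58 ± 1.65 CPM (SD, n = 6 each). Only the step from interbout to refractory in this order exceeded its error. Torpid animals differed from interbout by 0.15 ± 0.29 log2 (edgeR adjusted p = 0.875). With long photoperiod replicates 1 to 3 as the only controls, Cpt1b in pre-hibernation and in interbout no longer passed (edgeR adjusted p = 0.0573 and 0.078), while with replicates 4 to 6 alone it did (0.0116 and 0.0238). The deposited names of those 3 and 3 libraries follow 2 patterns, and a comparison with 3 controls has fewer samples.

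Cpt1c, the brain form, moved in the same direction as Cpt1b by a smaller amount. Its lowest, median and highest libraries were at 23.0, 27.8 and 34.2 CPM on long photoperiod, at 30.3, 36.4 and 45.4 CPM in pre-hibernation and at 31.5, 40.4 and 50.5 CPM in late pre-hibernation. They were at 34.4, 42.6 and 51.45 CPM in interbout, at 36.2, 42.3 and 51.7 CPM in torpid and at 18.5, 25.97 and 37.45 CPM in refractory animals. Every interbout and torpid library was above every long photoperiod library.

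Cpt1c rose over long photoperiod by 0.55 ± 0.15 log2 in late pre-hibernation (edgeR adjusted p = 0.0262), 0.57 ± 0.15 in interbout (edgeR adjusted p = 0.0339) and 0.63 ± 0.15 in torpid animals (edgeR adjusted p = 0.00433). The difference in pre-hibernation was 0.40 ± 0.15 (edgeR adjusted p = 0.192), and late pre-hibernation stood 0.15 ± 0.15 above pre-hibernation (edgeR adjusted p = 1). The torpid call held in all 12 fits that left out 1 library, but not with long photoperiod 4 to 6 as the only controls (0.0856, against 0.0484 with 1 to 3). Neither of the other calls held with 3 controls (edgeR adjusted p = 0.188 to 0.316). The late pre-hibernation call was lost in 7 of 12, without long photoperiod 1, 3, 4 or 5 or late pre-hibernation 1, 3 or 5 (edgeR adjusted p up to 0.108). The interbout call was also lost in 7 of 12, without long photoperiod 1, 3, 4 or 5 or interbout 3, 4 or 6 (edgeR adjusted p up to 0.101). Refractory animals were lower than interbout by -0.66 ± 0.15 (edgeR adjusted p = 0.0167), than torpid by -0.72 ± 0.15 (edgeR adjusted p = 0.00132) and than late pre-hibernation by -0.64 ± 0.15 (edgeR adjusted p = 0.0139). Against pre-hibernation the difference was -0.49 ± 0.15 (edgeR adjusted p = 0.0463), lost in 8 of 12 fits (up to 0.132 without pre-hibernation 4; the others were pre-hibernation 1, 2, 3 and 6 and refractory 1, 2 and 4) and without the rRNA-rich libraries (0.0659).

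Cpt1a, the liver form, did not pass against long photoperiod in any group. Its lowest, median and highest libraries were at 46.35, 66.2 and 82.4 CPM on long photoperiod, at 60.6, 70.3 and 77.8 in pre-hibernation and at 45.5, 62.7 and 72.2 in late pre-hibernation. They were at 56.9, 61.5 and 71.9 CPM in interbout, at 51.7, 80.4 and 89.8 in torpid and at 35.3, 54.1 and 63.5 in refractory animals. The differences of the 4 earlier short-day groups ran from -0.07 ± 0.14 to 0.22 ± 0.14 log2, and that of refractory animals was -0.37 ± 0.14 (edgeR adjusted p = 0.234). Refractory animals stood below torpid animals by -0.59 ± 0.14 (edgeR adjusted p = 0.00519), held in all 12 fits that left out 1 library. Below pre-hibernation the difference was -0.48 ± 0.14 (edgeR adjusted p = 0.0434), lost in 8 of 12 fits (up to 0.112 without refractory 4; the others were pre-hibernation 1, 2, 3, 4 and 6 and refractory 1 and 2) and without the rRNA-rich libraries (0.0824).

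Because the 3 forms moved unequally, their proportions changed. On long photoperiod Cpt1b made up 7.31% ± 1.40 of the summed CPM per kb of the 3 forms, Cpt1a 55.2% ± 1.65 and Cpt1c 37.5% ± 1.92 (SD, n = 6). In late pre-hibernation Cpt1b made up 19.2% ± 3.79, Cpt1a 39.8% ± 3.72 and Cpt1c 41.04% ± 2.55. The Cpt1b share was 18.3% ± 4.58 in pre-hibernation, 18.1% ± 3.715 in interbout, 17.6% ± 5.47 in torpid and 9.82% ± 3.32 in refractory animals. The lowest Cpt1b share in any of the 4 hibernation-season groups was 9.71% (pre-hibernation 5) and the highest on long photoperiod was 9.13%, so these libraries did not overlap. The summed level of the 3 forms was 27.2 ± 4.80 CPM per kb on long photoperiod, 40.6 ± 7.65 in torpid and 23.3 ± 5.73 in refractory animals. These shares were computed after the separate values had been seen and are given without a test.

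**Figure D2:**
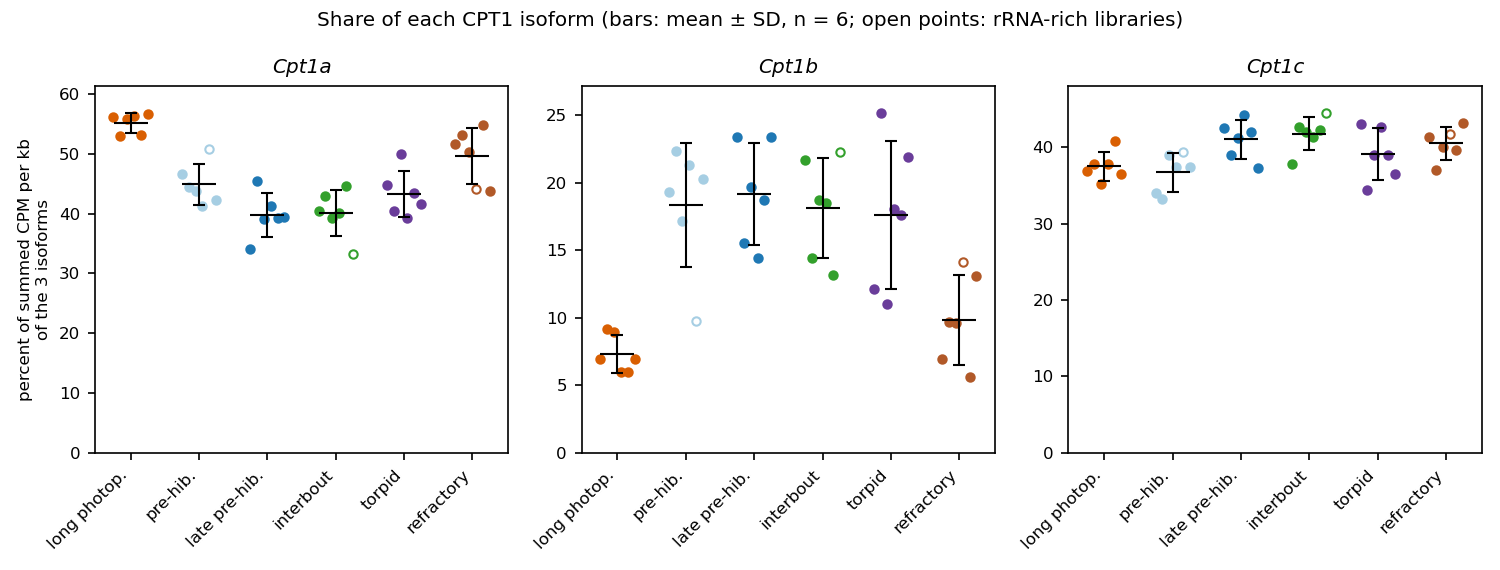
Percent of the summed CPM per kb of Cpt1a, Cpt1b and Cpt1c that each form held (y axes from 0, a separate scale per panel) in each library by group (x axis), with the mean ± SD of 6 and the rRNA-rich libraries open. The Cpt1b share lies between 5.94% and 9.13% on long photoperiod and between 5.61% and 14.1% in refractory animals, and its group means are 17.6% to 19.2% in the other 4 groups.

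Cpt1b is expressed strongly in striated muscle, so muscle markers were set beside it. Of 8 muscle markers in the files 5 could be tested, and Ckm, muscle creatine kinase, was the one that rose over long photoperiod, by 0.91 ± 0.21 log2 in pre-hibernation (edgeR adjusted p = 0.0116), 1.21 ± 0.21 in late pre-hibernation (0.000303), 0.83 ± 0.21 in interbout (0.0294) and 1.12 ± 0.21 in torpid animals (0.000381). Ckm means were 23.3 CPM on long photoperiod, 41.4 to 54.0 in the 4 hibernation-season groups and 22.0 in refractory animals. The 7 other muscle markers summed to 3.69 to 7.52 CPM on long photoperiod and to 4.515 to 10.7 CPM in those 4 groups, with medians of 5.51 CPM and 7.47 to 7.92 CPM. The median difference of the 5 tested markers was 0.55 to 0.81 log2 in those groups, and 4 of the 5 did not pass. Among these markers, mean Actn3 (a fast-fibre actinin) was 1.13 CPM on long photoperiod, 1.64 to 2.19 in the 4 groups and 0.899 in refractory animals. Mean Mb (myoglobin) was 1.68, 2.35 to 2.95 and 2.16 CPM in that order, and mean Acta1 (skeletal actin) 1.17, 1.49 to 2.09 and 1.62 CPM. Mean Tnnt3 was 0.967 CPM on long photoperiod. It was higher in pre-hibernation (1.36) and torpid animals (1.135) and lower in late pre-hibernation (0.782) and interbout (0.891). Its refractory mean was 2.07 and its refractory median 0.935 CPM. In refractory animals Ckm fell against each of the 4 groups, and Actn3 fell against torpid animals as well (-1.11 ± 0.36 log2, edgeR adjusted p = 0.0331). The fast myosin genes Myh2 and Myh4 stayed under 0.5 CPM in every library of those groups and of long photoperiod, and Myl1, a myosin light chain, was at 0 in all 6 late pre-hibernation libraries. The refractory library 4, rRNA-rich, held 77.1 CPM of those 7 markers, with Myh2 at 33.6 and Myh4 at 29.5 CPM, and its Cpt1b was 7.19 CPM, near the refractory median. Of 4 brown fat markers, Ucp1, Adipoq and Elovl3 had group means of at most 0.613 CPM. The fourth, Cidea, the one that could be tested, averaged 7.96 CPM for long photoperiod, 9.35 and 11.4 CPM for the earlier and the later pre-hibernation stage, 11.7 for interbout, 7.70 for torpid and 9.70 for refractory animals. It differed from long photoperiod by 0.55 ± 0.27 log2 in interbout (edgeR adjusted p = 0.405) and did not pass in any pair. Medians of the summed pituitary markers were 398.0 CPM on long photoperiod, 104.0 to 109.0 in the 4 groups and 304.3 in refractory animals, and of 8 tested 2, 1, 5 and 5 fell against long photoperiod in pre-hibernation, late pre-hibernation, interbout and torpid animals. Medians of summed erythrocyte markers were 15.9 CPM, 3.64 to 5.23 CPM and 15.35 CPM in the same order. Of 10 endothelial markers tested, Kdr and Esam rose over long photoperiod in pre-hibernation, interbout and torpid animals. In late pre-hibernation Kdr, Esam and Slco1c1 passed, 2 up and 1 down, and in refractory animals none did. Medians of summed endothelial markers were 465.1 CPM on long photoperiod, 312.9 to 349.9 in the 4 groups and 353.4 in refractory animals. The part of muscle, brown fat, pituitary, blood, endothelial or other cells in the rise of Cpt1b was not tested.

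**Figure D3:**
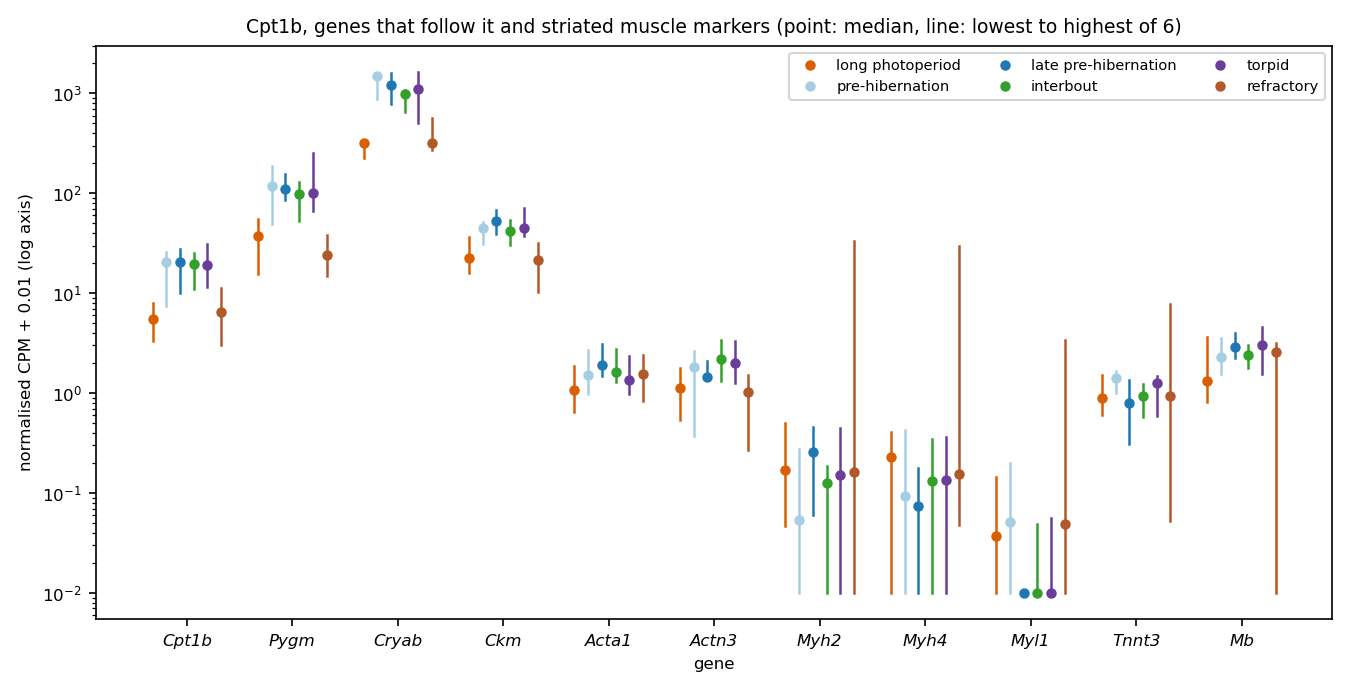
Median (point) and lowest to highest of 6 libraries (line) of Cpt1b, 2 of the genes most like it, and 8 striated muscle markers, as normalised CPM plus 0.01 on a log axis (y), by gene (x) and group (colour). Cpt1b, Pygm, Cryab and Ckm are high in the 4 hibernation-season groups. Mb, Actn3 and Acta1 have somewhat higher means there than on long photoperiod at 1 to 3 CPM. Tnnt3 medians are 0.882 CPM on long photoperiod and 0.788 to 1.42 CPM in those 4 groups. Myh2, Myh4 and Myl1 lie under 0.5 CPM apart from refractory 4.

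Chkb lies 1055 bases upstream of Cpt1b on the same strand (build BCM_Maur_2.0, where Cpt1b spans NW_024429194.1:75856912-75865075), and in other mammals transcripts run from one gene into the other. These genes share no exon bases in this annotation. Chkb means were 28.7 ± 2.01 CPM on long photoperiod, 31.2 ± 4.29 in late pre-hibernation, 36.7 ± 2.24 in torpid and 30.6 ± 2.41 in refractory animals. Its rise over long photoperiod passed in torpid animals, at 0.36 ± 0.09 log2 (edgeR adjusted p = 0.00653), against 1.86 for Cpt1b. Read-through between them was not tested.

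The carrier Slc25a20 was lowest in refractory animals. Its lowest, median and highest libraries were at 41.7, 50.6 and 55.35 CPM on long photoperiod, at 41.5, 62.2 and 69.5 in pre-hibernation and at 50.6, 53.1 and 65.7 in late pre-hibernation. They were at 43.7, 64.2 and 67.4 CPM in interbout, at 57.7, 62.6 and 69.7 in torpid and at 17.8, 43.2 and 50.15 in refractory animals. The lowest library in pre-hibernation, interbout and refractory was the rRNA-rich one. Every refractory library was below every torpid and every late pre-hibernation library.

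Refractory animals stood below torpid animals by -0.61 ± 0.15 log2 for Slc25a20 (edgeR adjusted p = 0.00435, held in all 12 fits without 1 library). The difference from interbout was -0.57 ± 0.15 (edgeR adjusted p = 0.0242), lost without interbout 2, 3 or 4 (up to 0.0615). From pre-hibernation it was -0.51 ± 0.15 (edgeR adjusted p = 0.0331), lost without pre-hibernation 2, 3, 4 or 6 or refractory 4 (up to 0.103). From late pre-hibernation it was -0.46 ± 0.15 (edgeR adjusted p = 0.0574). With those 3 removed it rose over long photoperiod in pre-hibernation by 0.30 (edgeR adjusted p = 0.0288), in interbout by 0.36 (0.0104) and in torpid animals by 0.31 (0.00579). With all libraries these rises were 0.23 ± 0.14, 0.29 ± 0.14 and 0.33 ± 0.14 and did not pass (0.577, 0.454 and 0.172).

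Cpt2, which returns the acyl group to coenzyme A in the matrix, did not pass in any of the 15 pairs of groups. Its lowest, median and highest libraries were at 63.3, 77.3 and 103.0 CPM on long photoperiod, at 47.8, 80.4 and 97.4 in pre-hibernation and at 63.6, 82.7 and 86.6 in late pre-hibernation. They were at 55.8, 84.8 and 92.7 CPM in interbout, at 69.2, 89.5 and 101.3 in torpid and at 24.3, 69.3 and 84.0 in refractory animals, so all groups overlapped. The largest difference was refractory below torpid, -0.44 ± 0.18 (edgeR adjusted p = 0.0903).

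Of the acyl-CoA synthetases, Acsl6, a synthetase of brain and muscle that prefers polyunsaturated fatty acids, was highest on long photoperiod, where its lowest, median and highest libraries were at 60.05, 94.9 and 133.8 CPM. They were at 41.4, 55.01 and 67.7 CPM in pre-hibernation, at 43.1, 46.5 and 57.7 in late pre-hibernation and at 46.8, 59.2 and 64.3 in interbout. They were at 48.8, 56.6 and 83.8 CPM in torpid and at 19.9, 68.6 and 85.0 in refractory animals. Late pre-hibernation libraries all lay below long photoperiod, and in the other groups the ranges overlapped.

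Acsl6 fell by 0.98 ± 0.21 log2 in late pre-hibernation (difference -0.98, edgeR adjusted p = 0.0035, held in all 12 fits without 1 library). In pre-hibernation it fell by 0.78 ± 0.21 (edgeR adjusted p = 0.0349), a call lost in 9 of 12 fits, without long photoperiod 2, 3, 4 or 6 or pre-hibernation 1 to 5 (up to 0.115), and with 3 controls (0.204 and 0.21). In interbout, torpid and refractory animals the differences from long photoperiod were -0.71 ± 0.21, -0.60 ± 0.21 and -0.61 ± 0.21 (edgeR adjusted p = 0.0719, 0.0633 and 0.156). Without the rRNA-rich libraries the interbout and torpid differences passed (edgeR adjusted p = 0.0307 and 0.00947). No difference of refractory animals from another short-day group passed for Acsl6. Acsl6 shares 46 exon bases with LOC106020929, an overlapping gene with group means of 1.57 to 2.23 CPM, so reads there could belong to either. Medians of the summed astrocyte markers were 5030 CPM for long photoperiod, 3900 before hibernation at 4 weeks, 3792 for the late stage, 4346 for interbout, 5359 for torpid and 4671 for refractory animals. For summed oligodendrocyte markers they were 371.6, 273.0, 297.8, 314.8, 328.8 and 366.8 CPM in the same order. Their part in the Acsl6 difference was not tested.

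Acsl5, a synthetase of outer mitochondrial and endoplasmic reticulum membranes, did not pass in any pair. Its group means were 55.8 ± 5.75 CPM for long photoperiod, 57.2 ± 4.29 for pre-hibernation, 51.45 ± 8.86 for late pre-hibernation, 53.1 ± 6.39 for interbout, 53.0 ± 8.76 for torpid and 42.0 ± 11.3 for refractory animals. The refractory libraries ran from 21.6 to 52.9 CPM and overlapped every other group. The largest difference was refractory below pre-hibernation, -0.43 ± 0.14 log2 (edgeR adjusted p = 0.062).

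Of the dehydrogenases, Acadm, for medium-chain acyl-CoA, had its highest median on long photoperiod, at 77.5, 85.2 and 93.4 CPM (lowest, median, highest). It was at 54.95, 73.6 and 77.3 CPM in pre-hibernation, which did not overlap, at 57.65, 65.5 and 78.4 in late pre-hibernation and at 48.2, 71.2 and 78.7 in interbout. It was at 65.0, 80.7 and 89.8 CPM in torpid and at 49.3, 69.4 and 78.2 in refractory animals. No pair passed with all libraries. The largest difference from long photoperiod was late pre-hibernation, -0.35 ± 0.11 log2 (edgeR adjusted p = 0.0804). It passed without the rRNA-rich libraries, at -0.35 (edgeR adjusted p = 0.00373), and without late pre-hibernation 6 (0.0439).

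Acadl, for longer chains, was the steadiest of the 10, with group means between 56.9 ± 11.3 CPM in refractory animals and 65.25 ± 8.765 in pre-hibernation. In torpid animals its 6 libraries ran from 60.5 to 67.4 CPM, and on long photoperiod from 58.98 to 68.7 CPM. The difference between these groups was 0.02 ± 0.11 log2 (edgeR adjusted p = 0.955).

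Pdk4, which shuts off pyruvate dehydrogenase and is a known target of PPAR alpha and of FOXO1 in fasting muscle and heart, was the scarcest of the 10 and did not pass in any pair. Its lowest, median and highest libraries were at 4.28, 5.81 and 6.32 CPM on long photoperiod, at 3.32, 4.33 and 5.48 in pre-hibernation and at 4.16, 4.94 and 7.79 in late pre-hibernation. They were at 2.88, 5.11 and 6.08 CPM in interbout, at 4.02, 5.61 and 7.75 in torpid and at 2.40, 4.31 and 7.37 in refractory animals. The torpid minus long photoperiod difference was 0.04 ± 0.22 log2 (edgeR adjusted p = 0.955). Pdk4 had at least 67 counts in each library that was not rRNA-rich and 7 counts in refractory 4, and a change below this error was not detectable.

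Taking the genes by comparison, 2 of the 10 passed in pre-hibernation against long photoperiod (Cpt1b up, Acsl6 down), where 2.29% of all genes passed, and 3 in late pre-hibernation (Cpt1b and Cpt1c up, Acsl6 down), where 3.58% did. Cpt1b and Cpt1c passed in interbout against a background of 1.85%, and in torpid animals against 9.05%. The 5 comparisons share the 6 long photoperiod libraries, so they are not independent. None of the 10 passed in refractory animals against long photoperiod, where 0.329% of genes (59) did by edgeR; at an unadjusted p under 0.05 there were 4 of the 10 and 2327 of all genes, and DESeq2 called 0 of the 10. The median difference of the 10 was -0.29 log2 there, beside 0.025 for all genes tested. The rRNA-rich library refractory 4 enters this median, which is not given without it. In the 4 comparisons with long photoperiod before that, the median of the 10 lay between -0.03 and 0.10, beside -0.003 to 0.014 for all genes.

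**Figure D4:**
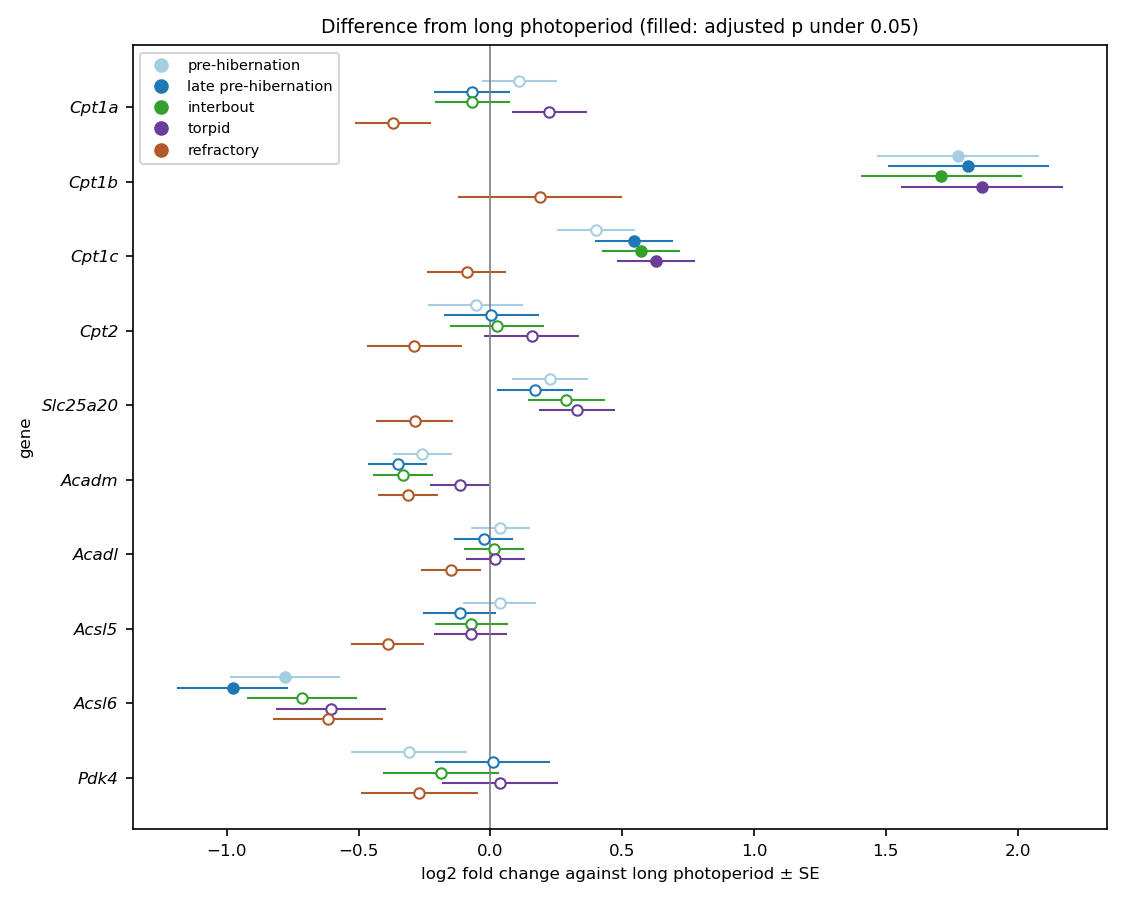
Log2 fold change ± SE (x axis) of each gene (y axis) in the 5 short-day groups against long photoperiod, with filled points for edgeR adjusted p under 0.05. Cpt1b lies between 1.71 and 1.86 in 4 groups and at 0.19 in refractory animals, Cpt1c between 0.40 and 0.63 in the same 4, and Acsl6 between -0.98 and -0.60 in all 5.

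Within the hibernation season none of the 10 genes passed between pre-hibernation and late pre-hibernation or between late pre-hibernation and interbout, comparisons in which 0 of 17926 genes did by edgeR (background 0% and 0%); at an unadjusted p under 0.05 no member was counted in either, beside 739 and 1104 of all genes, and DESeq2 called 4 and 32 genes in all. None passed between interbout and pre-hibernation either, where 0.00558% of genes, a single one, did. In torpid animals 4.06% of genes passed against interbout, 4.86% against pre-hibernation and 4.45% against late pre-hibernation, and again none of the 10. Unadjusted p was under 0.05 for 1, 0 and 2 of the 10 there, beside 2737, 2920 and 2744 of the 17926 genes tested. Torpid Cpt1a against interbout, at 0.29 ± 0.14 log2 (edgeR adjusted p = 0.323), was the member closest to passing between the cold-bodied and the warm-bodied state. DESeq2 called 0 of the 10 in this comparison as well.

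Refractory animals were lower than each earlier short-day group for Cpt1b and Cpt1c, and than some of them for Slc25a20 and Cpt1a. Against interbout 3 fell (Cpt1b, Cpt1c, Slc25a20) with a background of 3.5%. Against pre-hibernation 4 fell (Cpt1a, Cpt1b, Cpt1c and Slc25a20, background 5.35%), and against late pre-hibernation 2 (Cpt1b and Cpt1c, 5.39%). As given above, Cpt1a, Cpt1c and Slc25a20 against pre-hibernation were lost in some fits without 1 library. So was Slc25a20 against interbout. Against torpid animals 4 fell (Cpt1a, Cpt1b, Cpt1c, Slc25a20; 15.2%), and none of the 10 rose in any of the 4. The median difference of the 10 was -0.31, -0.33, -0.29 and -0.38 log2 in that order, beside 0.02, 0.02, 0.04 and 0.04 for all genes tested. The 4 comparisons share the 6 refractory libraries. Among them the rRNA-rich refractory 4 was below every other refractory library for 8 of the 10 genes. It enters all 4 medians, which are not given without it. Leaving it out moved the refractory mean from 64.6 to 72.7 CPM for Cpt2, from 40.7 to 45.25 for Slc25a20 and from 42.0 to 46.1 for Acsl5. For Cpt1b the refractory mean went the other way, from 6.41 to 6.26 CPM. With the rRNA-rich libraries of refractory and interbout animals set aside, mitochondrially encoded genes took 2.42% to 3.21% of counts in refractory libraries (median 3.045%), 2.10% to 3.18% in torpid (median 2.29%), 2.43% to 2.72% in interbout (median 2.51%) and 2.02% to 2.92% on long photoperiod (median 2.69%). Summed mural and fibroblast markers ranged from 57.7 to 122.3 CPM in refractory, against 48.8 to 71.55 in torpid animals. Of 8 pituitary markers tested 5 rose in refractory animals against interbout and 5 against torpid animals (median difference of the 8, 3.38 and 3.58 log2), 3 against pre-hibernation and 1 against late pre-hibernation. The part of any of these in the falls was not tested.

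**Figure D5:**
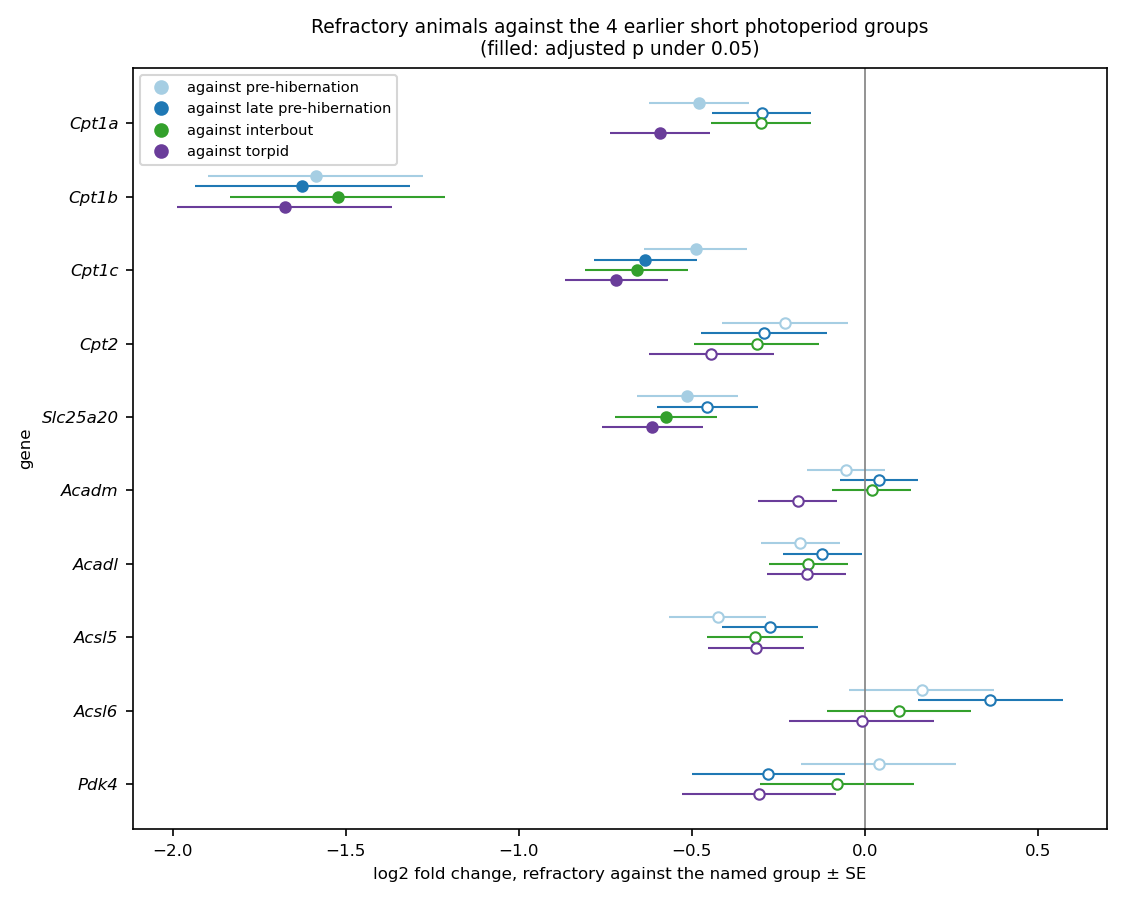
Log2 fold change ± SE (x axis) of each gene (y axis) in refractory animals against each of the 4 earlier short-day groups, with filled points for edgeR adjusted p under 0.05. Cpt1b lies between -1.68 and -1.52 and passed in all 4, Cpt1c between -0.72 and -0.49, and Acsl6 at or above -0.01.

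Around these genes, 134 others of the same pathways were listed, of which 126 were in the files and 121 were tested. Of these, 16 (13.2%) differed among the 6 groups, beside 14.6% of all genes. Of 7 tested genes for carnitine uptake, carnitine synthesis and other carnitine transferases, 2 passed. Crat, which makes acetylcarnitine from acetyl-CoA, rose from 28.9 ± 4.57 CPM on long photoperiod to 41.8 ± 7.16 in pre-hibernation (0.53 ± 0.12 log2, edgeR adjusted p = 0.00744), and stood at 30.8 ± 3.99 in refractory animals. Tmlhe, the first enzyme of carnitine synthesis, rose from 29.9 ± 2.63 to 44.7 ± 9.82 CPM in pre-hibernation (0.58 ± 0.15, edgeR adjusted p = 0.0284) and 45.8 ± 6.54 in late pre-hibernation, and was at 25.7 ± 7.71 in refractory animals. Torpid animals also stood above long photoperiod, for Crat by 0.37 ± 0.12 (edgeR adjusted p = 0.0391) and for Tmlhe by 0.57 ± 0.15 (0.0121). The refractory Tmlhe difference from interbout was -0.65 ± 0.15 (edgeR adjusted p = 0.019).

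Of 12 other acyl-CoA dehydrogenase and electron transfer flavoprotein genes, Acad10 was the one that differed among groups. It rose over long photoperiod in late pre-hibernation by 0.45 ± 0.13 log2, in interbout by 0.54 ± 0.13 and in torpid animals by 0.65 ± 0.13 (edgeR adjusted p = 0.042, 0.0189 and 0.000741), from 19.9 ± 1.80 CPM to 31.2 ± 4.49 in torpor, and was at 17.4 ± 4.83 in refractory animals. Acadvl, the very long chain dehydrogenase gene, did not pass, with group means between 181.0 and 217.6 CPM. Of 13 genes of the later steps of mitochondrial beta oxidation none passed among groups. Hadha, the trifunctional protein's alpha subunit, had group means between 223.7 and 279.0 CPM (edgeR adjusted p among groups = 0.342).

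Among 15 other synthetase and fatty acid transport genes, Dbi, which encodes the acyl-CoA binding protein, fell from 1480 ± 213 CPM on long photoperiod to 699.3 ± 91.7 in late pre-hibernation (-1.08 ± 0.18 log2, edgeR adjusted p = 0.000224). It also passed in interbout (-0.83 ± 0.18, edgeR adjusted p = 0.00962) and torpid animals (-0.58 ± 0.18, 0.0381). Acsf2, a mitochondrial synthetase of medium-chain fatty acids, fell in refractory animals against interbout (-0.51 ± 0.15, edgeR adjusted p = 0.0487). Acsl1, Acsl3 and Acsl4 did not differ among groups (edgeR adjusted p = 0.798, 0.429 and 0.846). Of 14 peroxisomal genes, Abcd2, a transporter of very long chain acyl-CoA, rose in late pre-hibernation (0.61 ± 0.15, edgeR adjusted p = 0.0128) and Acox2, an oxidase of branched chains and bile acid precursors, fell (-1.08 ± 0.32, 0.0457). Abcd2 also rose over long photoperiod in torpid animals (0.585 ± 0.153, edgeR adjusted p = 0.0108), where Acox2 did not pass (-0.405 ± 0.311, 0.521).

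In the list of PPAR receptors, coactivators and targets 8 of 21 genes differed among groups, in unlike patterns. Angptl4, a secreted inhibitor of lipoprotein lipase and a PPAR target, was highest in torpid animals. Its libraries ran from 5.405 to 13.5 CPM on long photoperiod, from 4.39 to 15.6 in interbout, from 10.2 to 24.1 in torpid and from 1.71 to 6.48 in refractory animals. Torpid animals stood 0.67 ± 0.26 log2 above interbout (edgeR adjusted p = 0.163). It rose in torpid animals against long photoperiod by 0.83 ± 0.26 log2 (edgeR adjusted p = 0.0353) and fell in refractory against torpid animals by 1.71 ± 0.27 (edgeR adjusted p = 4.33e-05), without overlap. Ppara, the fatty acid sensing receptor, fell in torpid animals from 9.69 ± 1.18 to 6.215 ± 1.22 CPM (-0.64 ± 0.15, edgeR adjusted p = 0.00394), and Ppard fell from 55.5 ± 5.04 to 43.1 ± 4.32 CPM (-0.36 ± 0.08, 0.00283). Fabp7, the brain fatty acid binding protein, fell from 76.1 ± 20.4 to 31.8 ± 13.0 CPM (-1.25 ± 0.29, 0.00354). These falls are from long photoperiod. Against interbout, torpid animals differed by -0.162 ± 0.149 log2 for Ppara, -0.165 ± 0.082 for Ppard and -0.22 ± 0.286 for Fabp7. None of these passed (edgeR adjusted p = 0.689, 0.331 and 0.802), nor did torpid against pre-hibernation (0.555, 0.411 and 0.534 in the same order). Of the coactivators, Ppargc1b and Ppargc1a rose in refractory against torpid animals (1.53 ± 0.41, edgeR adjusted p = 0.0104, and 0.55 ± 0.15, 0.0149). Ppargc1b did not differ among the 6 groups (edgeR adjusted p = 0.0791). Pparg, a scarce receptor gene, was lower in torpid than in interbout animals (-2.25 ± 0.58, edgeR adjusted p = 0.0183). Its means were 0.733 and 3.58 CPM, and the libraries overlapped. It was the 1 gene of the 121 that passed in this comparison, 0.826% beside 4.06% of all genes.

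None of 13 genes of the pyruvate dehydrogenase complex and its kinases, of 10 for malonyl-CoA and AMP-activated kinase control, or of 8 for ketone bodies differed among the 6 groups. Between refractory and torpid animals, where 15.2% of all genes passed, Pdhx of the first list fell (-0.475 ± 0.162 log2, edgeR adjusted p = 0.0426). Prkab1 of the second list fell there too (-0.434 ± 0.139, edgeR adjusted p = 0.0307). The kinase gene Pdk2 had group means between 100.8 and 120.6 CPM, Pdk3 between 58.9 and 74.1 and Pdk1 between 8.90 and 12.35 (edgeR adjusted p among groups = 0.472, 0.168 and 0.352). Of 8 lipase genes Mgll, monoacylglycerol lipase, differed among groups.

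The genes whose log2 CPM followed each member most closely over the 36 libraries were sought among 11722 named genes with a mean of at least 1 log2 CPM. Nearest to Cpt1b were Pygm, the muscle form of glycogen phosphorylase, also an astrocyte enzyme (Pearson r = 0.909, and 0.934 over the 33 libraries that were not rRNA-rich), the thyroid hormone receptor Thrb (0.895 and 0.902) and the small heat shock protein Cryab (0.891 and 0.943). Pygm means were 37.3 ± 13.3 CPM on long photoperiod, 97.2 to 123.6 in the 4 hibernation-season groups and 25.5 ± 9.21 in refractory animals. Cryab means were 297.5 ± 44.9 CPM on long photoperiod, 934.8 to 1323 in those 4 groups and 367.1 ± 112 in refractory animals.

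Nearest to Cpt1c were Elk1 (r = 0.918), Sppl2a (0.904) and Fkbp10 (0.902), and nearest to Acsl6 were Rcan1 (0.876), Col9a3 (0.872) and Hhatl (0.868). Rcan1, a calcineurin inhibitor, averaged 224.4 ± 60.9 CPM on long photoperiod and 115.4 ± 14.7 in late pre-hibernation. Nearest to Cpt1a were Slc44a2 (0.899), Sec61a1 (0.891) and Ubap2l (0.891). The nearest to Slc25a20, Gatd1 (0.925), Slc39a1 (0.922) and Pts (0.921), were less alike without the rRNA-rich libraries, at r = 0.779, 0.823 and 0.801. All these values are descriptions over libraries that differ in group, depth and RNA quality.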

How the data were processed

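The authors deposited unnormalised counts per gene, in a table for each library. Per the file headers, featureCounts 2.0.1 assigned read pairs to exons of the RefSeq annotation of BCM_Maur_2.0, without strand; STAR appears in the alignment names, and aligner settings are not stated in the labels or headers. Exon length is a column of the same tables. RNA integrity numbers were 7 to 9, per the labels. Of 32340 genes, 31895 matched the RefSeq table by symbol.

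Counts were filtered with filterByExpr (17926 genes), scaled with TMM and fitted over all 36 libraries in 1 robust quasi-likelihood model (edgeR 4.0.16, R 4.3.3), with 15 pairs of groups and a test among the 6 groups. Fold changes and log2 CPM (prior count 2) were computed from these deposited counts; SE is the fold change over the root of F. The workflow was tested on simulated data. The 10 genes, 10 pathway lists and 12 marker lists were chosen with earlier results of these data known. Named beside the 10 genes are up to 4 genes per list and comparison that passed, 12 fixed genes (Slc22a5 not used here, and another not reported here) and the 3 genes most correlated with each member that differed among groups; Chkb, LOC106020929, Ckm and the other muscle and brown fat markers were added for position or as markers.

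Alternatives were RLE factors, DESeq2 1.42.0, no filter beyond 1 count, a replicate block, 3 of the 6 long photoperiod libraries at a time, leaving out each library, and, chosen after seeing the data, leaving out the 3 rRNA-rich libraries (over 5% ribosomal RNA). Replicate numbers were taken from the sample titles and were not treated as pairs in the main fit. Python 3.11.15, pandas 2.3.3 and matplotlib 3.10.9 made the tables and figures.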

Additional observations from a re-analysis of the deposited data

Results flagged for a closer look

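In 8 of the 60 sets of 6 libraries (10 genes in 6 groups), 1 library lay far from the other 5 by Dixon's ratio; chance marks about 1 in 20 such sets. Of these 8, 6 were rRNA-rich libraries. Slc25a20 was 43.7 CPM in interbout 6 (next lowest 63.3) and 17.8 CPM in refractory 4 (next 41.9). Acadm was 54.95 CPM in pre-hibernation 5 (next 71.2) and 49.3 CPM in refractory 4 (next 68.0). Acadl was 48.4 CPM in pre-hibernation 5 (next 63.8) and 35.6 CPM in refractory 4 (next 55.5). The 2 others were Cpt2 at 63.6 CPM in late pre-hibernation 4 (next lowest 80.7) and Acsl5 at 69.2 CPM in late pre-hibernation 5 (next highest 50.3).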

How the results depend on the processing

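No value that was called changed sign. Of the 10 genes, 2 passed in pre-hibernation against long photoperiod, 1 with no filter beyond 1 count, 0 with long photoperiod 1 to 3 alone, 1 with 4 to 6 alone and 1 to 2 when 1 library was left out. In interbout 2 passed, then 1, 0, 1 and 1 to 2 in the same order, and 4 without the rRNA-rich libraries. In torpid animals 2 passed, 1 with long photoperiod 4 to 6 alone, 4 without the rRNA-rich libraries and 2 to 3 with 1 library left out.

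Over all genes, the count differing among groups was 2625, but 4172 with DESeq2, 5943 with no filter and 4952 without the rRNA-rich libraries. Against long photoperiod the counts were 411 in pre-hibernation (DESeq2 637, no filter 263, controls 1 to 3 108, controls 4 to 6 111, without rRNA-rich 1141, and 263 to 381 with 1 library left out, lowest without long photoperiod 4), 642 in late pre-hibernation (controls 270 and 226, without rRNA-rich 1747), 332 in interbout (614, 203, 102, 56 and 847 in the order given for pre-hibernation, and 178 to 362 with 1 library left out, lowest without interbout 4) and 1622 in torpid animals (no filter 1066, controls 836 and 602, without rRNA-rich 3787). In refractory animals the count was 59 (RLE 165, DESeq2 330, controls 4 to 6 6, without rRNA-rich 95, and 23 to 413 with 1 library left out). Interbout against late pre-hibernation gave 0 (DESeq2 32, without rRNA-rich 153, up to 25 without interbout 6). Torpid against interbout gave 728 (DESeq2 1153, no filter 482, without rRNA-rich 1601), and refractory against interbout 628 (DESeq2 972, no filter 2026, and 222 to 1007 with 1 library left out).

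With the replicate number as a block (replicate block), 5 of the 10 genes differed among groups and 2, 3, 2, 2 and 0 passed against long photoperiod, as without it; over all genes refractory against interbout gave 219. Slc25a20 in refractory against pre-hibernation was lost (edgeR adjusted p = 0.0509). Same-numbered libraries correlated at -0.329 to 0.265 and matched best in 5 of 54 cases. Such correlations cannot show whether same-numbered animals had a batch in common. Fewer genes or samples enter some of these fits; otherwise the cause was not tested. Low counts limit Pdk4 and Cpt1b most.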
